A study of Mus musculus with 6 samples.

Results

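The BCL2 family genes described here are 10 members that set the balance between survival and mitochondrial death of a cell: the anti-apoptotic genes Bcl2, Bcl2l1 (BCL-XL) and Mcl1, the effectors Bax and Bak1, and the BH3-only genes Bid, Bad, Bcl2l11 (BIM), Bbc3 (PUMA) and Pmaip1 (NOXA). They were taken by symbol from a table of 23420 genes, in which all 10 were found, and all 10 were among the 10352 genes with enough counts to test. The table holds RNA counts of regulatory T cells (Tregs) from 6 libraries, 3 of an untreated group and 3 of a group that received the anti-PD-1 antibody J43 (200 µg per intraperitoneal injection, 2 injections per week). All mice were Foxp3-GFP animals of the BALB/c strain, which carry a green reporter in FoxP3-expressing cells, and all received 10000 cells of the claudin-low breast tumor line T11. Tumors were taken at 150 mm2 and GFP-positive cells were sorted from them, so each library is a bulk sample of sorted Tregs. Mouse ages, the number of animals behind a library and any control antibody for the untreated group were not given in the labels. Because the labels do not tie each library to its own animal, a p-value below reflects the spread among these libraries alone, and that spread may be technical.

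Proteins of this family act at the outer membrane of the mitochondrion. BAX and BAK form the pores that release cytochrome c, the anti-apoptotic proteins hold them and the BH3-only proteins in check, and the BH3-only proteins either occupy the anti-apoptotic proteins or activate BAX and BAK directly. In Tregs, MCL1 is known as a main survival protein and BIM as its main antagonist, while cytokines such as IL-2 sustain the anti-apoptotic side. Much of this control takes place on the proteins, through phosphorylation, binding and turnover, which RNA counts do not measure.

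The sorted cells carried the defining Treg marker in every library, with Foxp3 between 437 and 562 CPM (counts scaled to a common library size, with TMM factors). The 6 Treg markers together summed to 6297 to 7069 CPM without and 5358 to 6089 CPM with anti-PD-1, so the groups did not overlap. Within the list, Ctla4 (log2 fold change -0.41 ± 0.13) and Ikzf2 (-0.24 ± 0.13) had lower values and Foxp3 (0.21 ± 0.14) and Cd4 (0.18 ± 0.14) higher values after anti-PD-1, each without overlap, and none of the 6 passed edgeR's test (adjusted p from 0.448 to 0.794). The part of these markers in the values of the family was not tested. The CD8 T cell gene Cd8a lay between 5.40 and 23.8 CPM, and the epithelial gene Krt8 had no count. Of 3 endothelial markers, Cdh5 and Kdr had no count, while Pecam1 stood at 64.5 to 73.7 CPM without and 83.6 to 123 CPM with anti-PD-1, without overlap (log2 fold change 0.48 ± 0.20, edgeR adjusted p = 0.551). Macrophage markers (5 genes found) summed to 14.6 to 34.3 CPM and markers of tumor cells and fibroblasts (6 genes) to 27.5 to 53.6 CPM. Library totals ran from 4766533 to 6686774 counts, and every untreated library was deeper than every anti-PD-1 library. In the whole table, 3 genes passed edgeR's quasi-likelihood test at a Benjamini-Hochberg adjusted p under 0.05, 0.029% of those tested, and none of the 3 belongs to the BCL2 family.

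Mcl1, whose short-lived protein guards T cells against BIM and NOXA, was the most abundant member, followed by Pmaip1, the gene of its BH3-only antagonist NOXA. Levels of different genes were compared as CPM per kilobase of exon, since longer transcripts give more fragments. On this scale Mcl1 stood at 152 ± 16.0 CPM per kb (SD over 6 libraries), above 97.3% of tested genes, and Pmaip1 at 85.6 ± 13.2, above 94.3% of tested genes. Bcl2l1 followed at 25.7 ± 6.38, Bcl2l11 at 20.8 ± 6.10, Bak1 at 13.6 ± 2.77, Bax at 11.9 ± 5.81 and Bid at 7.62 ± 1.41 CPM per kb. Bcl2 came eighth at 4.95 ± 3.60 CPM per kb, and Bad (2.02 ± 1.40) and Bbc3 (1.89 ± 1.31) were the lowest. Mcl1 exceeded Pmaip1, and Pmaip1 exceeded Bcl2l1, in all 6 libraries. Below that, no 2 neighbours in the order were ranked the same way in every library: Bcl2l1 exceeded Bcl2l11 in 5 of 6, Bcl2l11 exceeded Bak1 in 5 and Bak1 exceeded Bax in 4, and Bax exceeded Bid in 4. Bid exceeded Bcl2 in 5 of 6 libraries, Bcl2 exceeded Bad in 5, and Bad and Bbc3 were split 3 to 3.

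**Figure D1:**
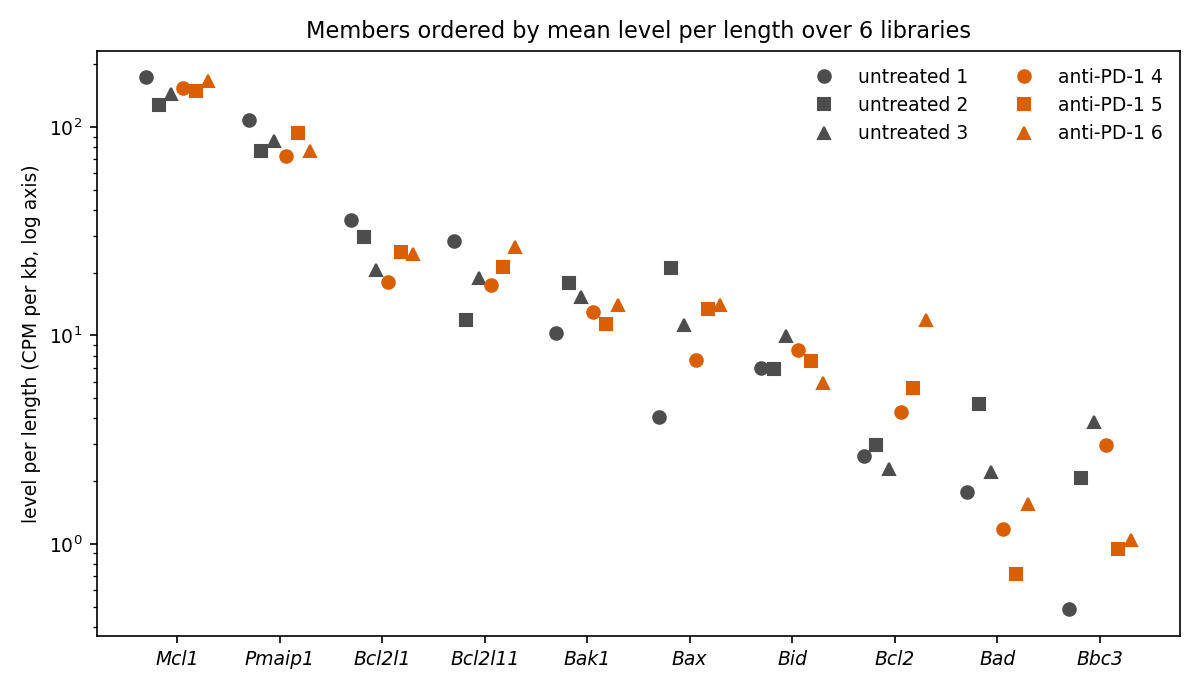
Level per transcript length of each member (CPM per kb, log axis), 1 point per library, grey for untreated and orange for anti-PD-1, with members ordered by their mean over 6 libraries. Mcl1 and Pmaip1 stand above all other members in each library, and Bcl2 is the member whose orange points all lie above its grey ones.

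Bcl2, the founding anti-apoptotic gene, had the largest difference, 2.74-fold higher after anti-PD-1, and the other 9 members had log2 fold changes between -1.29 and 0.13. None of the 10 passed edgeR's test over all genes. At an unadjusted p under 0.05 stood 1 member, Bcl2, where 8.3% of all tested genes stood in either direction and 4.23% with higher values. DESeq2 called 1 member, again Bcl2, where it called 0.785% of the 4331 genes to which it gave an adjusted p, and it gave none to Bax, Bak1, Bid, Bad and Bbc3. The groups did not overlap in 2 of the 10 members, Bcl2 (higher) and Bad (lower), and they did not overlap in 13.6% of all tested genes, 7.18% with higher and 6.44% with lower values. In 7 of 10 members the fold change lay below 0, as it did in 49.9% of tested genes, and the median over the members was -0.13 (log2), against 0.0016 over all tested genes. Bcl2 was the only one of the 10 members whose 95% interval in edgeR lay off 0.

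**Figure D2:**
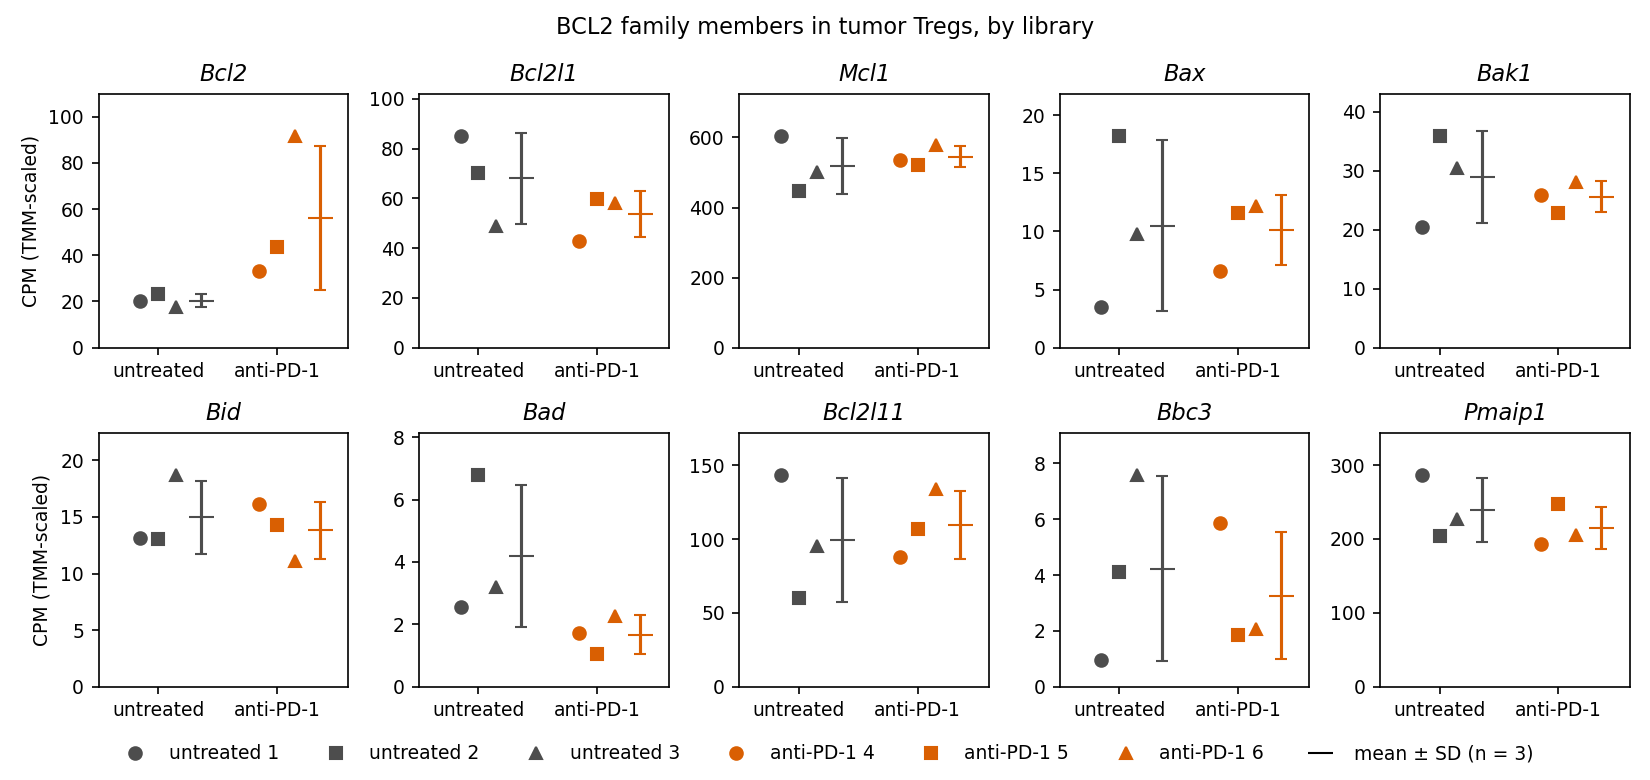
TMM-scaled CPM of each member by library, on a linear axis from 0 in each panel, with the mean and SD of the 3 libraries of a group to the right of its points. Bcl2 shows untreated libraries between 17.7 and 23.1 CPM and anti-PD-1 libraries between 33.4 and 91.7 CPM, while in the panels of the other members, apart from Bad, the groups overlap.

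Bcl2 is the gene of the long-lived anti-apoptotic protein that keeps resting lymphocytes alive. It stood at 20.3, 23.1 and 17.7 CPM in untreated libraries 1, 2 and 3, whereas anti-PD-1 libraries 4, 5 and 6 had 33.4, 43.5 and 91.7 CPM. The untreated libraries lay within 1.30-fold of each other and all anti-PD-1 libraries above them, but the anti-PD-1 libraries spread over 2.75-fold, with library 6 far above the other two. The group values were 20.4 ± 2.67 and 56.2 ± 31.2 CPM (SD, n = 3 each). The log2 fold change was 1.46 ± 0.34 (SE), with a 95% interval from 0.76 to 2.15, an unadjusted p of 0.000233 and a Benjamini-Hochberg adjusted p of 0.136 in edgeR, and Bcl2 had the 17th smallest p of the 10352 genes. DESeq2 gave it an adjusted p of 0.0127 (range over 15 alternatives to the edgeR fit 0.000638 to 0.622). On the opposite strand, GENCODE vM21 places the antisense gene D630008O14Rik over 558 exon bases of Bcl2. The authors' strand setting separates such pairs only if the libraries mark strand as it assumes, which the labels do not state. In bulk RNA, more cells with Bcl2 and more Bcl2 RNA per cell cannot be told apart.

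The size of the Bcl2 difference depended on anti-PD-1 library 6. Without that library the log2 fold change was 0.91 (1.88-fold, edgeR adjusted p = 0.622), with the remaining anti-PD-1 libraries at a mean of 38.4 CPM. Leaving out any other single library gave between 1.36 and 1.73. Library 6 held 445 Bcl2 counts against 105 to 129 in the untreated libraries. No removal of duplicates is stated, so these counts may include copies, and the part of that in the spread was not tested. Library 6 also had the most genes detected, 13155 against 11653 to 12608 in the others. The part of that in the Bcl2 level was not tested. Markers of other lymphocytes were not highest in library 6. Its B cell markers (4 genes summed) came to 4.33 CPM, where untreated libraries had 3.04 to 10.0 and the other anti-PD-1 libraries 11.8 and 19.0. Its CD8 T cell markers (2 genes) came to 18.7 CPM, where the other libraries had 11.05 to 51.1. Its natural killer cell markers (2 genes) came to 0.412 CPM, the lowest of all, with Klrb1c at 0. The Treg markers (6 genes) of library 6 came to 5358 CPM, also the lowest of all. Untreated libraries had 6297 to 7069 CPM and the other anti-PD-1 libraries 6089 and 5699 CPM. The part of any of these markers in the Bcl2 level was not tested.

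**Figure D3:**
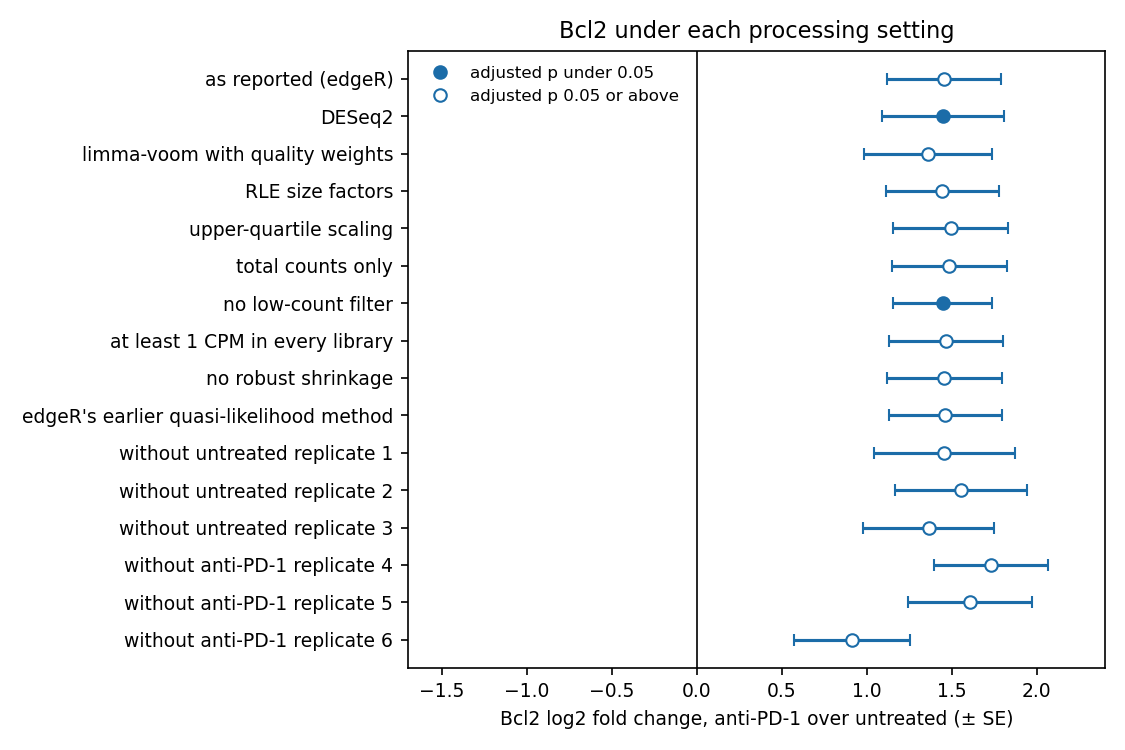
Log2 fold change of Bcl2 (anti-PD-1 over untreated, bars ± SE) as reported and under each alternative processing, with filled points where the adjusted p was under 0.05. Every point lies above 0, from 0.91 without anti-PD-1 replicate 6 to 1.73 without anti-PD-1 replicate 4, and 2 of the alternatives pass the threshold.

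In mm10, Bcl2 lies on chromosome 1 (106538179 to 106714290, minus strand), Mcl1 on chromosome 3 (95658721 to 95663178, plus strand) and Bcl2l11 on chromosome 2 (128126038 to 128162547, plus strand). The 250 bases before the outermost start of these 3 genes are shown because they are the member that differed most, the most abundant member and the main antagonist of both, and because cytokine, stress and FOXO factors are known to act on such promoters. They are RefSeq sequences of GRCm38.p6 (the mm10 assembly), 5′ to 3′ on the strand of the gene, at chr1:106714291-106714540 (minus), chr3:95658471-95658720 (plus) and chr2:128125788-128126037 (plus). Capitals mark matches to 4 motifs searched on both strands, namely GTAAACA (FOXO), TGANTCA (AP-1), TGACG (the CRE half-site of CREB and ATF factors) and TTCNNNGAA (STAT), and no matches to different motifs overlap.
Bcl2: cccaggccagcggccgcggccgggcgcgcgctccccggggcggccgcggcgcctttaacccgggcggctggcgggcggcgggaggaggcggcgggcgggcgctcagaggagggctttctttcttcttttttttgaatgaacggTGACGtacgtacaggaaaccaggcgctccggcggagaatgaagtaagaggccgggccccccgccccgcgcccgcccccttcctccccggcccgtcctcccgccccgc
Mcl1: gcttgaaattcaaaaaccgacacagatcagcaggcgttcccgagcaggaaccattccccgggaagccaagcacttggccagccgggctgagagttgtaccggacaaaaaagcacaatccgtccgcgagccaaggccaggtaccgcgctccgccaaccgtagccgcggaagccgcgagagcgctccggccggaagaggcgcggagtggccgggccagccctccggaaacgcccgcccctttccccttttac
Bcl2l11: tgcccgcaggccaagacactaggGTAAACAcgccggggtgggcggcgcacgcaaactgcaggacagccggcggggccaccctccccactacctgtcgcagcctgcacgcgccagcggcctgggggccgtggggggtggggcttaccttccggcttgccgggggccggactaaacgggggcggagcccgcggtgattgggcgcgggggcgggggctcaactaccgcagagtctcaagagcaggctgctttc
The Bcl2 window holds TGACG, starting 107 bases before the start site, a match found in 17.8% of 32851 such windows of mouse genes. The Bcl2l11 window holds GTAAACA, starting 227 bases before the start site, found in 3.17% of all windows. GTAAACA is absent from the other Bcl2l11 window, which is not shown, and matches in a window of Bbc3. TGACG also matches in a different Bbc3 window. The Mcl1 window holds none of the 4. Neither TGANTCA (6.75% of all windows) nor TTCNNNGAA (7.02%) occurs in any of the 15 windows searched, which belong to 9 members. Windows of Pmaip1 were not included in this search. The GC box GGGCGG of SP and KLF factors, left in lower case, occurs 7 times in the Bcl2 window, 3 times in that of Bcl2l11 and 1 time in that of Mcl1, and at least once in 32.7% of all windows. The Bcl2 window is 74.8% G or C, the Bcl2l11 window 72.0% and the Mcl1 window 64.4%. These matches are letters in a sequence, and binding was not measured.

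The other anti-apoptotic members did not share the Bcl2 difference. Mcl1 stood at 605, 447 and 502 CPM in untreated libraries 1, 2 and 3 against 535, 522 and 579 CPM with anti-PD-1 (libraries 4, 5 and 6). All anti-PD-1 values lay inside the untreated range. Its log2 fold change was 0.07 ± 0.15 (SE), with a 95% interval from -0.23 to 0.38, so a change of Mcl1 as large as that estimated for Bcl2 lies outside the interval (edgeR adjusted p = 0.927). Bcl2l1, the gene of BCL-XL, which activated T cells induce, stood at 85.2, 70.1 and 48.9 CPM in untreated and at 43.0, 59.8 and 58.3 CPM in anti-PD-1 libraries (chromosome 2, 152780668 to 152831682, minus strand). Its highest values were those of untreated libraries 1 and 2, and the groups overlapped through untreated library 3. The log2 fold change was -0.35 ± 0.24, with an interval from -0.84 to 0.14 (edgeR adjusted p = 0.738). Counts here are per gene, so the long and short forms of Mcl1 and Bcl2l1 RNA, whose products can act in opposite ways, were not separated.

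The pore-forming effectors showed no difference beyond the spread between libraries. Bak1 (chromosome 17, 27019812 to 27028626, minus strand) stood at 20.5, 35.9 and 30.5 CPM in untreated and at 26.0, 22.8 and 28.0 CPM in anti-PD-1 libraries. The anti-PD-1 values all lay within the untreated range, with a log2 fold change of -0.17 and an interval from -0.80 to 0.46. It shares 396 exon bases with Ggnbp1 on the opposite strand. Bax (chromosome 7, 45461695 to 45466898, minus strand) stood at 3.52, 18.2 and 9.78 CPM in untreated and at 6.63, 11.6 and 12.2 CPM in anti-PD-1 libraries. It rested on 22 to 102 counts per library and was lowest in untreated library 1 and highest in untreated library 2, so its interval, -1.11 to 1.04 around a log2 fold change of -0.03, excludes little. GENCODE vM21 places 192 exon bases of another gene, Gm45808, on the same strand within Bax, and fragments from it could count as Bax.

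Among the BH3-only genes, Bcl2l11 and Pmaip1 were well measured and neither differed beyond the spread. Bcl2l11, the gene of BIM, which removes T cells after loss of cytokine, stood at 143, 59.9 and 95.3 CPM in untreated and at 88.1, 107 and 134 CPM in anti-PD-1 libraries. Untreated libraries 1 and 2 were its highest and lowest values and differed 2.396-fold, more than any pair of anti-PD-1 libraries (1.52-fold). The log2 fold change was 0.13 ± 0.24, with an interval from -0.38 to 0.63 (edgeR adjusted p = 0.925). Without untreated library 2 it was -0.12, and without anti-PD-1 library 6 it was -0.04, so its sign rested on single libraries. Pmaip1 stood at 287, 204 and 227 CPM in untreated and at 193, 248 and 205 CPM in anti-PD-1 libraries (chromosome 18, 66458604 to 66465558, plus strand). Its groups overlapped, with a log2 fold change of -0.16 ± 0.17 and an interval from -0.50 to 0.19.

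Bid, Bad and Bbc3 were low. Bid, whose product links death receptors to mitochondria after cleavage by caspase-8, stood at 13.1, 13.0 and 18.7 CPM in untreated and at 16.1, 14.3 and 11.1 CPM in anti-PD-1 libraries (chromosome 6, 120893119 to 120916820, minus strand). Its groups overlapped, with a log2 fold change of -0.11 and an interval from -0.91 to 0.70. Bad, whose product is silenced by AKT and PIM kinases through binding to 14-3-3 proteins, stood at 2.56, 6.79 and 3.20 CPM in untreated and at 1.71, 1.04 and 2.27 CPM in anti-PD-1 libraries (chromosome 19, 6941855 to 6951893, plus strand). Every anti-PD-1 value lay below every untreated value, but these were 9, 5 and 11 counts against 16, 38 and 19. The log2 fold change was -1.29 ± 0.80, the interval -2.93 to 0.36, and the edgeR adjusted p 0.705. The gene shares 517 exon bases with Gpr137 on the opposite strand. Bbc3, a p53 and FOXO target, had 6, 23 and 45 counts without anti-PD-1 and 31, 9 and 10 with it (chromosome 7, 16309583 to 16318334, plus strand). It spread from 0.96 to 7.59 CPM, both within the untreated group, and the 95% interval of its log2 fold change ran from -1.89 to 1.25, so differences of either sign lie within it.

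**Figure D4:**
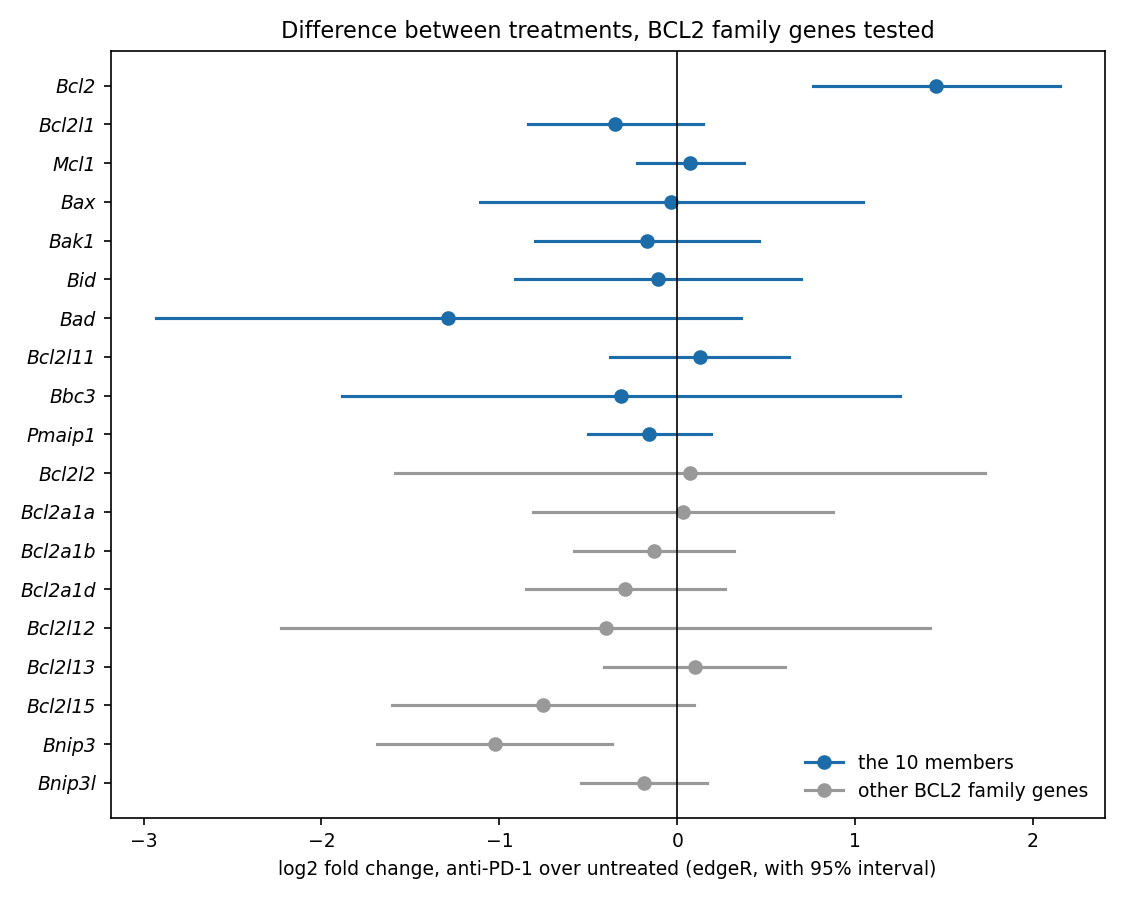
Log2 fold change with 95% interval from edgeR for the 10 members (blue) and the other BCL2 family genes that could be tested (grey). Among the 10 members, only the interval of Bcl2 (0.76 to 2.15) lies off 0, and Bnip3 is the other gene whose interval does so.

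Among the 3 anti-apoptotic members, Mcl1 held most of the summed level per length in both groups. The sum of Bcl2, Bcl2l1 and Mcl1 was 180 ± 27.9 CPM per kb in untreated and 186 ± 14.1 CPM per kb in anti-PD-1 libraries, of which Mcl1 made up 79.8% to 87.2% in each library. This sum leaves out the anti-apoptotic A1 genes Bcl2a1a, Bcl2a1b and Bcl2a1d, which came to 143 ± 8.03 and 127 ± 19.3 CPM per kb together. With them included, the share of Mcl1 was 41.6% to 48.2% in untreated and 48.7% to 52.5% in anti-PD-1 libraries, without overlap. Of the sum of the 3 members without the A1 genes, Bcl2 made up 1.24%, 1.85% and 1.37% in untreated libraries 1, 2 and 3. In anti-PD-1 libraries 4, 5 and 6 it made up 2.45%, 3.11% and 5.85%. Per length, the Mcl1 level was 56.4 times that of Bcl2 in untreated and 21.5 times in anti-PD-1 libraries (ratio of group means). The 5 BH3-only genes summed to 123 ± 21.8 and 113 ± 10.4 CPM per kb, with Pmaip1 at 68.8% to 75.4% and Bcl2l11 at 11.6% to 23.7% of the sum. The effectors summed to 26.6 ± 12.3 and 24.4 ± 3.70 CPM per kb. The ratio of the BH3-only sum to the sum of the 3 anti-apoptotic members was 0.688, 0.637 and 0.722 without anti-PD-1 and 0.585, 0.685 and 0.554 with it, with overlap through anti-PD-1 library 5. These sums and ratios are scores over chosen members and were not tested.

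The ratio of Bcl2 to Bcl2l11, the pair whose proteins bind each other in resting T cells, was 0.0923, 0.251 and 0.121 in untreated libraries 1, 2 and 3 and 0.246, 0.265 and 0.446 in anti-PD-1 libraries 4, 5 and 6. Its mean was 2.06 times higher after anti-PD-1, but untreated library 2, with the lowest Bcl2l11, reached the level of anti-PD-1 library 4. The ratio of Mcl1 to Pmaip1 was 1.605 to 1.68 in the untreated libraries and 2.11, 1.61 and 2.15 in anti-PD-1 libraries 4, 5 and 6. Untreated libraries agreed closely in this ratio, and anti-PD-1 library 5 lay among them.

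Of 16 further BCL2 family genes, 9 could be tested, and edgeR called none of them. DESeq2 called none of the 4 to which it gave an adjusted p, and it gave none to Bnip3, Bcl2l15, Bcl2l12, Bcl2l2 and Bcl2a1a. In edgeR 6 of the 9 lay below 0, where 49.9% of all tested genes did, with a median log2 fold change of -0.19. Of the 9, 1 had an unadjusted p under 0.05, where 8.3% of all tested genes did in either direction. The A1 genes, anti-apoptotic NF-kappaB targets of activated lymphocytes, were next to Pmaip1 in level: Bcl2a1b stood at 74.6 CPM per kb without and 68.1 with anti-PD-1, and Bcl2a1d at 52.9 and 43.0. Bcl2a1a was lower, at 15.5 and 15.8 CPM per kb, and Bcl2a1c had no count. These A1 genes are near-identical copies, so their separate counts are uncertain. On the CPM scale, their log2 fold changes were 0.03 ± 0.41 for Bcl2a1a, -0.13 ± 0.22 for Bcl2a1b and -0.29 ± 0.27 for Bcl2a1d. Each of Bcl2a1a, Bcl2a1b and Bcl2a1d stood above Bcl2 per length in both groups.

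Bnip3, a hypoxia-induced gene of mitochondrial autophagy, had the lowest unadjusted p of these relatives (0.00372, edgeR adjusted p = 0.424). It stood at 28.98, 30.7 and 38.1 CPM in untreated and at 14.2, 18.8 and 15.04 CPM in anti-PD-1 libraries, a log2 fold change of -1.03 ± 0.32. The groups did not overlap. Its relative Bnip3l had a log2 fold change of -0.19 ± 0.17 with overlapping groups. Bcl2l15, a little-studied family member, stood at 19.2, 16.4 and 16.7 CPM in untreated and at 14.6, 6.002 and 10.1 CPM in anti-PD-1 libraries, without overlap (edgeR adjusted p = 0.657). Bcl2l13, Bcl2l12 and Bcl2l2 had log2 fold changes of 0.10 ± 0.25, -0.40 ± 0.89 and 0.07 ± 0.80. The BH3-only genes Bmf, Bik and Hrk, the effector relative Bok, Bcl2l10, Bcl2l14 and Bcl2a1c were too low to test. Bok, Hrk, Bcl2l10 and Bcl2a1c had no count in the 6 libraries, which allows up to 0.0914 CPM over all of them (3 counts, counting error only).

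Downstream of the family lie the caspases and their inhibitors. Of 21 genes of the mitochondrial death machinery, all tested, none passed edgeR's test or, for the 10 with an adjusted p, DESeq2's, 14 lay below 0, and the median log2 fold change was -0.15. Over all tested genes, 49.9% lay below 0 and 8.3% had an unadjusted p under 0.05 in either direction. In this list 2 had an unadjusted p under 0.05, both with lower values. Of these, Xiap, whose product inhibits caspases, stood at 295, 269 and 257 CPM in untreated and at 227, 216 and 206 CPM in anti-PD-1 libraries, without overlap (log2 fold change -0.34 ± 0.15, edgeR adjusted p = 0.569). Htra2, the gene of a mitochondrial protease that counters XIAP, had a log2 fold change of 0.81 ± 0.55 with overlapping groups.

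Of 12 genes of the death receptor pathway, all tested, none passed edgeR's test or, for the 7 with an adjusted p, DESeq2's, none had an unadjusted p under 0.05 in edgeR, 9 lay below 0, and fold changes ran from -0.30 to 0.24 (log2) with a median of -0.20. Over all tested genes, 49.9% lay below 0 and 8.3% had an unadjusted p under 0.05. Within this list the smallest p belonged to the TNF receptor gene Tnfrsf1b (-0.24 ± 0.14), the ligand gene Tnfsf10 (-0.30 ± 0.20) and Cflar, whose product blocks caspase-8 (-0.23 ± 0.18). Of 19 genes whose products modify, bind or degrade family proteins, all tested, none passed edgeR's test or, for the 15 with an adjusted p, DESeq2's, and none had an unadjusted p under 0.05 in edgeR, with 11 above 0 and a median of 0.06. The smallest p belonged to Akt1 (0.45 ± 0.26), the 14-3-3 gene Ywhah (-0.31 ± 0.20) and the kinase gene Pim3 (0.62 ± 0.39), whose product phosphorylates BAD.

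Upstream, 14 of 15 genes of factors that act on family promoters could be tested. Of these 14, 9 lay above 0, where 49.9% of all tested genes lay below 0, and the median log2 fold change was 0.19. Only Jun, an AP-1 subunit that can induce Bcl2l11, rose past the threshold over all genes (1.11 ± 0.16, edgeR adjusted p = 0.0034). Next by p were the NF-kappaB subunit gene Rel (-0.41 ± 0.17) and Atf4, a stress-response factor that can induce Pmaip1 (0.39 ± 0.18), at edgeR adjusted p of 0.551 and 0.580. Of 7 genes of the receptors for IL-2, IL-7 and IL-15 and their kinases, none passed edgeR's test or, for the 6 with an adjusted p, DESeq2's, 4 lay above 0 and the median was 0.09. Il2ra, the high-affinity IL-2 receptor chain of Tregs, had -0.35 ± 0.16, the sole unadjusted p under 0.05 among them, against 8.3% of all tested genes. Il15ra had -0.79 ± 0.42, and Il7r, the IL-7 receptor chain, had 0.21 ± 0.20.

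The 5 genes whose log2 CPM followed Bcl2 most closely over the 6 libraries, among 8701 tested genes with a mean of at least 5 CPM, were Dusp10, Socs3, Foxp1, Tubb2a and Rbm10 (Pearson's r between 0.965 and 0.990, a description of 6 points chosen from many genes). All 5 share with Bcl2 the highest value in anti-PD-1 library 6, which choosing genes by their likeness to Bcl2 favours. Dusp10, a phosphatase gene of stress kinases, stood at 140, 147 and 128 CPM in untreated and at 194, 195 and 291 CPM in anti-PD-1 libraries. Socs3, an inhibitor of cytokine signalling, stood at 72.5, 62.9 and 63.2 CPM in untreated and at 98.2, 102 and 188 CPM in anti-PD-1 libraries. Foxp1, a factor of resting T cells, reached 254 CPM in library 6 against 129 to 139 CPM in untreated libraries. Tubb2a and Rbm10 were lower in level, up to 25.5 and 17.9 CPM, both reached in library 6. None of the 5 passed edgeR's test over all genes (adjusted p from 0.161 to 0.899).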

How the data were processed

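RNA of sorted tumor Tregs was counted in 6 libraries (3 untreated, 3 anti-PD-1), prepared with the NuGEN Ovation SoLo kit per the labels' protocols. The authors deposited a table of raw fragment counts, 1 row per gene, which featureCounts 1.5.2 made from UCSC gene models of mm10 under strand setting 1, per the file headers. The gene length in bases comes from the same deposited table. Alignment names in that header hold the word bbmap, and neither alignment settings nor any removal of duplicates is stated in these sources. A column without a name (1 column) was not used.

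From the counts, edgeR 4.0.16 in R 4.3.3 tested the 10352 genes kept by filterByExpr (count of 10, 15 in total), with TMM scaling, glmQLFit with robust shrinkage (its newer dispersion method) and a two-sided quasi-likelihood test, Benjamini-Hochberg adjusted over all of them at 0.05. CPM were scaled by TMM and divided by length for levels between genes. Errors are SDs over 3 libraries or SEs of the fit, except in the order of member levels. There they are SDs over the 6 libraries of both groups together, which include any group difference. Between any pair of libraries, chi-square per degree of freedom was at least 9.98, so none is a copy of another. Alternatives were DESeq2 1.42.0, limma 3.58.1 (voom with quality weights), other scalings and filters, no robust shrinkage and each library left out, and, chosen after seeing the data, edgeR's earlier quasi-likelihood method. Both edgeR methods had been run when the newer one was taken as the main fit, because it matched the gene counts of an earlier analysis of this table. Under the earlier method Bcl2 had a log2 fold change of 1.46 and an adjusted p of 0.215.

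The members, the gene lists and the naming rule (all members, all tested relatives, the 3 smallest p of each other list and the 5 genes most like Bcl2) were chosen with earlier results of these data known. On simulated data for this comparison (10352 genes), edgeR recovered 44% of the genes with a simulated 2-fold change and 71% with a 4-fold change. Of its calls, 5.74% fell on unchanged genes. DESeq2, which called Bcl2 in the real data, recovered 48% and 72%, and 11.1% of its calls fell on unchanged genes. For limma-voom the values were 40%, 64% and 5.45%. In the simulated data edgeR called 122 genes, against 3 in the real data, and no library was set apart from its group. These rates therefore do not carry over to the real data or to the Bcl2 call. Of the marker lists, 4 genes matched no symbol of the table. Values of some listed genes are not reported here.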

Additional observations from a re-analysis of the deposited data

How the results depend on the processing

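No paired analysis was possible because the replicate numbers of the groups (1 to 3 and 4 to 6) do not overlap. No member passed in edgeR as reported, and 1 member, Bcl2, passed with DESeq2 and without a filter on low counts (log2 fold changes 1.45 in both, adjusted p = 0.0127 and 0.000638). Bcl2 kept its direction in all 15 alternatives. Over all genes, the count past the threshold went from 3 to 34 (DESeq2), 13 (limma-voom), 5 (upper-quartile scaling, at least 1 CPM in every library, or no robust shrinkage), 7 (total counts only) and 52 (no filter), and to between 1 and 19 when a library was left out. The cause was not tested. Leaving out 1 library at a time, log2 fold changes crossed 0 for Bax (-0.47 to 0.61), Bak1 (-0.38 to 0.014), Bcl2l11 (-0.12 to 0.49), Mcl1 (-0.016 to 0.20), Bid (-0.24 to 0.083) and Bbc3 (-1.08 to 0.44). The opposite sign to that reported came without untreated replicate 2 for Bax, Bak1, Bcl2l11 and Mcl1, without untreated replicate 3 for Bid and Bbc3, without anti-PD-1 replicate 4 for Bax (0.21), and without anti-PD-1 replicate 6 for Bcl2l11 (-0.041) and Bid (0.026). Upper-quartile scaling gave Bax 0.00061. None of these had passed. The Bcl2 to Bcl2l11 ratio of group means lay between 1.65 and 2.99 with 1 library left out, the highest without untreated replicate 2. With the filter of 1 CPM in every library, Bbc3 was not tested. The 2 members whose groups did not overlap were 2 also without TMM. Bad and Bbc3 had at most 38 and 45 counts in a library, which limits their precision.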

Other observations

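Some low family genes had most of their counts in 1 library. Bcl2l14 had 32 counts in untreated library 2, 1 in anti-PD-1 library 6 and none in the other libraries. Bik, a BH3-only gene, had 16 counts in anti-PD-1 library 4 and at most 1 in any other. Bmf, a BH3-only gene released from the cytoskeleton under stress, had 6 counts in untreated library 2, 8 in anti-PD-1 library 6 and none elsewhere. Bcl2l2, the gene of the anti-apoptotic protein BCL-W, had 80 counts in untreated library 1 against 4 and 2 in the other untreated libraries, and 42, 19 and 15 in anti-PD-1 libraries 4, 5 and 6.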
